A study of Mus musculus with 24 samples.

Results

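The 10 genes described here encode filament and junction proteins of epithelial cells, namely the keratins Krt7, Krt8, Krt15, Krt18, Krt19 and Krt20, the desmosomal cadherins Dsg2, Dsg3 and Dsc2, and the desmosomal plaque protein Pkp2. They were followed in RNA from mouse intestinal organoids that lacked the Mediator kinases CDK8 and CDK19 or were treated with Senexin B, an inhibitor of both kinases. The members were chosen by symbol, from a list written with their changes in these same libraries already known, so which of them moved is a description and not independent evidence. All 10 were found among the 54146 genes of the count tables, and all 10 passed the filter on low counts in both experiments.

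Keratins are the intermediate filament proteins of epithelia. A filament is built from pairs of a type I and a type II chain, and the members hold the type II keratins Krt7 and Krt8 and the type I keratins Krt15, Krt18, Krt19 and Krt20. In the simple epithelium of the intestine, Krt8 pairs mainly with Krt18 and Krt19, Krt20 marks differentiated villus cells, and Krt7 and Krt15 are better known from ducts and from stratified epithelia, Krt15 also from some stem and progenitor cells. Desmosomes fasten these filaments to the cell border. The cadherins desmoglein (Dsg) and desmocollin (Dsc) bridge neighbouring cells, and plakophilins such as Pkp2 link their tails through desmoplakin to the keratins. Dsg2 and Dsc2 are the cadherins of simple epithelia, whereas Dsg3 is typical of stratified epithelia.

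The data comprise 24 libraries, prepared as biological triplicates of 8 groups. In the genotype experiment, the groups were WT, organoids without Cdk8 (Cdk8-/-), organoids without Cdk19 (Cdk19-/-) and double-knockout organoids (Cdk8-/-/Cdk19-/-). In the inhibitor experiment, organoids were given either Senexin B or its vehicle DMSO and were harvested after 16 h or 24 h. The labels of all 24 libraries carry the same RNA protocol, with 4-hydroxytamoxifen at 600 nM for 7 days before lysis, so the controls are described as having had it too. In the study's methods the organoids came from Cdk8 lox/lox mice with or without Villin-CreERT2, in which the Villin promoter restricts the tamoxifen-activated Cre recombinase to intestinal epithelium and recombination removes exon 2 of Cdk8. Cdk19 was edited by lentiviral delivery of Cas9 with a guide against exon 1, and single organoids were picked for clonal expansion, so a Cdk19-edited group may rest on few clones. The age of the donor mice was not given in the sources used here. The labels of the genotype libraries also name the cell type 4T1, a mouse mammary tumour line. All 7 intestinal epithelial markers examined were expressed in both experiments, with Vil1, a brush border protein, at 752 to 1360 CPM and 740 to 895 CPM, whereas 4 of 6 mammary markers, the milk protein genes Csn2 and Wap and the regulators Elf5 and Pgr, had 0 to 2 counts in every library of the genotype experiment. Of the other 2, the milk protein gene Csn3 had 0 to 23 counts, and the prolactin receptor gene Prlr was at 33.5 to 112 CPM there and at 24.5 to 34.5 CPM in the inhibitor experiment. Their sum was 45.0 to 56.2 CPM in WT and 67.7 to 111.8 CPM in double-knockout libraries, with both tested genes called higher there.

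Values are given as CPM, the counts of a gene relative to the summed counts of its library, with libraries scaled by the TMM method of edgeR, and the experiments were normalised apart. The genotype libraries held 14636861 to 15473180 gene counts each, read without strand information, and the inhibitor libraries 27075937 to 28405118 counts, read mostly from one strand. These are counts of a single strand column. Without regard to strand the libraries held 27761454 to 29299919 and 28264517 to 28826860 gene counts. Because of this difference in strand the levels of the experiments are not compared with each other. A targeted exon need not change a gene's total count, and Cdk8 was counted at 35.8 to 43.2 CPM in WT and at 42.4 to 57.3 CPM in Cdk8-/- libraries. Cdk19 was at 47.6, 50.1 and 48.6 CPM in WT, at 48.8, 28.1 and 28.3 CPM in Cdk19-/- and at 27.0, 23.8 and 51.7 CPM in double-knockout libraries. The library labelled Cdk19-/- replicate 1 and the library labelled Cdk8-/-/Cdk19-/- replicate 3 thus lay at the WT level of Cdk19, so the main results that rest on them are also given without them. In bulk RNA, fewer cells of a type and less RNA per cell cannot be told apart.

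The positions of the keratin genes are given on GRCm38, the build of the counts. Krt8 (ENSMUSG00000049382, chr15:101996698-102004482, minus strand) and Krt18 (ENSMUSG00000023043, chr15:102028180-102032027, plus strand) are neighbours that point away from each other across 23.7 kb, and Krt7 (ENSMUSG00000023039, chr15:101411043-101430313, plus strand) lies 566.4 kb from Krt8. Krt15 (ENSMUSG00000054146, chr11:100131758-100135928) and Krt19 (ENSMUSG00000020911, chr11:100140810-100148665) follow each other on the minus strand at a distance of 4.88 kb, and Krt20 (ENSMUSG00000035775, chr11:99428403-99438150, minus strand) lies 702.7 kb from Krt19. The bases in front of the first exon are shown for Krt20, the keratin with the widest range across genotypes, and for the neighbours Krt8 and Krt18, which form the main pair of the simple epithelium. The sequences are those of RefSeq on GRCm38.p6, read 5′ to 3′ on the strand of the gene. They stop before the annotated exons of the gene, and capitals mark a match to TATAAA, the core of the TATA box.
Krt20, chr11:99438154-99438403, minus strand: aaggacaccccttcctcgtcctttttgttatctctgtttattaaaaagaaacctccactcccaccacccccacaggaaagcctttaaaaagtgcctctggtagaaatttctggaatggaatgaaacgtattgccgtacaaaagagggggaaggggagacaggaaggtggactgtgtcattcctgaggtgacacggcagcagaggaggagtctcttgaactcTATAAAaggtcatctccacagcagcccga
Krt8, chr15:102004483-102004592, minus strand: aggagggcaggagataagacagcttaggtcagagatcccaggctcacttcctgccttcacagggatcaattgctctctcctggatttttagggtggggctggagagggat
Krt18, chr15:102027966-102028179, plus strand: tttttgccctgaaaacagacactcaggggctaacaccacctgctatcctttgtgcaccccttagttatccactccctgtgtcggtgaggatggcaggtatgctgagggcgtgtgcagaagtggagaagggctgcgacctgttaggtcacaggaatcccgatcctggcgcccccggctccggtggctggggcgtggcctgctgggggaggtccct
Both strands were searched for TATAAA, for the GC box GGGCGG, for the CCAAT box CCAAT and for the AP-1 motif TGANTCA, none of which overlapped another here. In front of Krt20, TATAAA began 29 bases before the end of the window, and 12.4% of 32851 RefSeq windows of the same length held this motif. The other 3 motifs had no match there. The windows of Krt8 and Krt18 are the first 110 and 214 of the 250 bases before the RefSeq start, as an annotated exon begins after them. None of the 4 motifs matched in them. The same first bases of all RefSeq windows held TATAAA in 5.63% and 9.71% and TGANTCA in 2.79% and 5.95% of cases. The bases nearest the RefSeq start of Krt8 and Krt18 were not searched, so no statement on their TATA box is made. A match is a description of the letters, and a missing match says only that these letters are not in the window.

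Levels of different genes were compared per kilobase of the longest principal transcript in the annotation. In WT organoids Krt19 was the highest at 1267 ± 71.9 CPM per kb (SD, n = 3), followed by Krt18 at 884 ± 29.0 and Krt8 at 813 ± 36.5 CPM per kb. Krt7 and Krt20 were lower, at 83.5 ± 4.07 and 36.1 ± 5.21 CPM per kb, and Krt15 was at 0.470 ± 0.116 CPM per kb. Among the desmosomal members, Dsg2 was at 70.8 ± 4.81, Dsc2 at 50.2 ± 3.64, Pkp2 at 37.3 ± 2.06 and Dsg3 at 0.145 ± 0.0752 CPM per kb. The organoids therefore expressed the keratins and desmosomal cadherins of simple epithelia at high levels and the members typical of stratified epithelia at very low ones, Krt15 with 5 to 74 counts and Dsg3 with 2 to 45 counts per library of the genotype experiment.

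Within the summed keratin members of WT libraries, taken per kilobase, Krt19 made up 41.1 ± 0.542%, Krt18 28.7 ± 0.609% and Krt8 26.4 ± 0.384% (SD, n = 3). Krt7 held 2.71 ± 0.0167%, Krt20 1.17 ± 0.161% and Krt15 0.0154 ± 0.00449%. The share of Krt20 was 1.87 ± 0.471% in Cdk8-/-, 3.59 ± 0.909% in double-knockout and 0.557 ± 0.186% in Cdk19-/- organoids, and Krt18 over Krt8 was 1.09 ± 0.0344 in WT, 0.887 ± 0.145 in double-knockout and 1.27 ± 0.102 in Cdk19-/- organoids. The ratio of type I to type II chains, by contrast, stayed in a narrow range. It was 2.44 ± 0.0468 in WT and 2.49 ± 0.0433 in Cdk8-/- organoids, and 2.57 ± 0.0744 in double-knockout and 2.55 ± 0.124 in Cdk19-/- organoids. With the inhibitor it was 1.21 ± 0.0363 and 1.24 ± 0.0114 in DMSO and 1.26 ± 0.0484 and 1.31 ± 0.0382 in Senexin B at 16 h and 24 h. Krt8 took 41.3 to 43.4% of the pool there on average. Without the libraries at the WT level of Cdk19, Krt20 held 0.459% of the pool in Cdk19-/- and 3.27% in double-knockout libraries, type I over type II was 2.62 and 2.57, and Krt18 over Krt8 was 1.32 and 0.835, in the same order (n = 2 each). These shares and ratios were not tested, and the ratio depends on how reads of Krt8 are counted, as its exons share 101 bases with Gm36026 on the opposite strand.

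**Figure D1:**
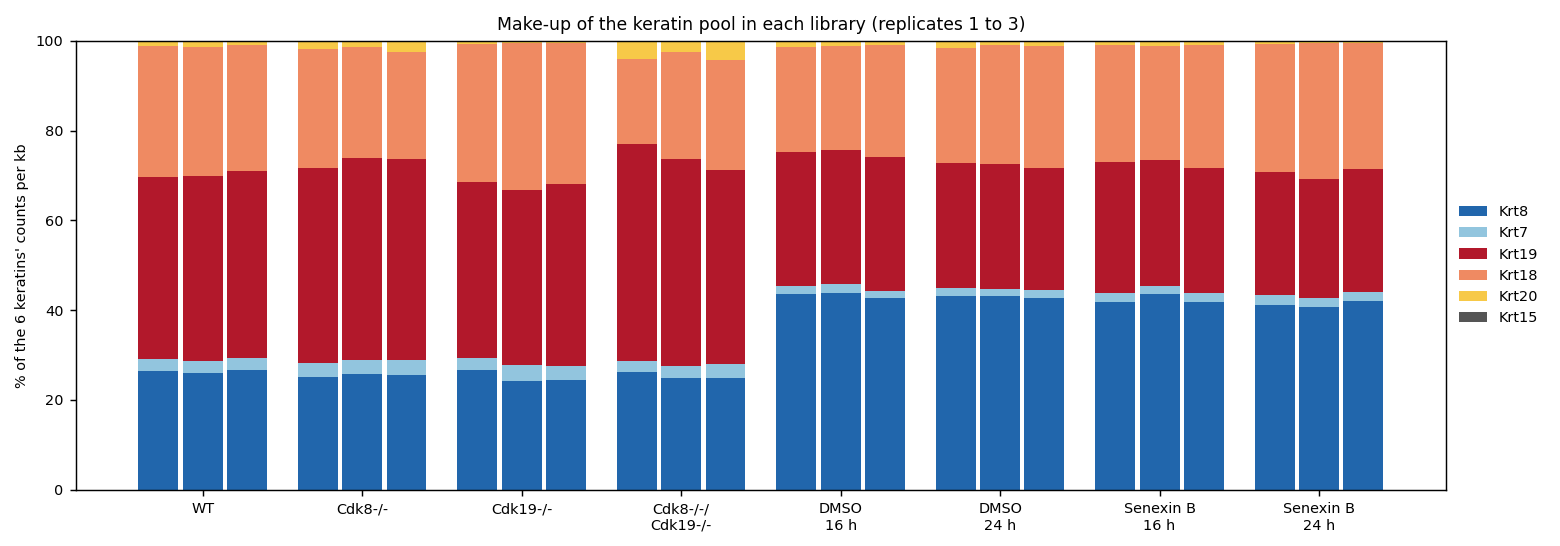
Stacked bars give the share of each keratin member in the summed counts per kilobase of the 6 keratins (vertical axis, in percent), with one bar per library and 3 libraries per group on the horizontal axis. Krt8, Krt18 and Krt19 fill nearly all of every bar, the Krt20 band is widest in double-knockout libraries, with a mean of 3.59%, and Krt15, at most 0.0692% in any library, is too thin to be seen.

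The comparisons with the control groups called members in different numbers. Genes were called deregulated at a Benjamini-Hochberg adjusted p under 0.05 in the quasi-likelihood test of edgeR over all genes tested, 15602 in the genotype and 15467 in the inhibitor experiment. In Cdk8-/- against WT organoids 2 of 10 members were higher, Krt7 and Krt15, where 2.79% of all genes were higher, and 0 were lower, where 2.36% were. In double-knockout against WT organoids 3 members were higher, Krt15, Krt20 and Dsc2, against a background of 9.41%, and 0 were lower against 7.9%. The libraries of the groups did not overlap for 5 and 6 of the members, where the same held for 29.6% and 38.8% of all genes tested. The median log2 fold change of the members was 0.368 and 0.342 in these comparisons, beside 0.0102 and -0.00899 over all genes tested. Both comparisons share the WT libraries.

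In Cdk19-/- against WT organoids 0 members were called, as were 0.0% of all genes in either direction by the edgeR test. Of all genes 1691 had an unadjusted p under 0.05, and the Wald test of DESeq2 called 298 genes there, 1 member among them. The median log2 fold change of the members was -0.285, beside -0.0175 over all genes. Without the library labelled Cdk19-/- replicate 1, 3 members were called lower, Krt8, Krt19 and Krt20, and 521 of all genes. Double-knockout organoids differed from Cdk19-/- ones in 6 members, Krt7, Krt8, Krt15, Krt19, Krt20 and Dsc2, all higher in double-knockout organoids, where 14.4% of all genes were higher and 11% lower. Fits without a library kept the call of Krt7 in 2 of 6 cases, with adjusted p up to 0.123, and that of Krt8 in 4 of 6, with adjusted p of 0.0671 and 0.0708 without Cdk19-/- replicate 2 or 3, and those of the other 4 members in all 6. Other ways of fitting called Krt7 and Krt8 in 7 of 8 cases each, with adjusted p up to 0.063 and 0.0598. Without both libraries at the WT level of Cdk19 the same 6 members were called, beside 4504 of 15821 genes in place of 3953 of 15602, with log2 differences of 0.406 for Krt7 (adjusted p = 0.0311), 3.31 for Krt15 (adjusted p = 0.000379) and 0.43 for Dsc2 (adjusted p = 0.0311). Against Cdk8-/- organoids 0 members were called, beside 0.0256% of all genes, 4 in number. The departure of the double knockout from the sum of the single knockouts, taken as the double-knockout minus Cdk8-/- difference less the Cdk19-/- minus WT difference, was called for 0 members and again for 0.0256% of genes.

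Senexin B was compared with DMSO of the same time. These libraries held more counts in the strand column used than those of the genotypes. They had fewer reads in all, at 36042777 to 36255610 beside 41879958 to 42068649. At 16 h 6 members were higher, Krt7, Krt8, Krt15, Krt18, Krt19 and Dsg3, against 4.36% of all genes, and 1 was lower, Pkp2, against 3.39%. At 24 h the same 6 were higher, against 14.8% of all genes, and 4 were lower, Krt20, Dsg2, Dsc2 and Pkp2, against 12.7%, so all 10 members were called. The calls of the 6 higher members and of Pkp2 held in all 6 fits without a library. Those of Krt20, Dsg2 and Dsc2 held in 3, 0 and 4 of 6. No member's DMSO and Senexin B libraries overlapped at 24 h, as was so for 45.6% of all genes tested. The median log2 fold change of the members was 0.347 at 16 h and 0.466 at 24 h, beside -0.00623 and 0.00105 over all genes. Between the DMSO groups, 24 h against 16 h, 1 member was higher, Dsg2, against 4.52% of all genes, and 0 were lower, against 6.59%. The difference between the Senexin B effects at 24 h and 16 h was called for 0 members and 0.0% of genes by edgeR, with 1995 genes at an unadjusted p under 0.05 and 67 called by the Wald test of DESeq2, 60 by edgeR with a replicate block and 121 without a filter. Each Senexin B comparison has its own DMSO libraries.

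**Figure D2:**
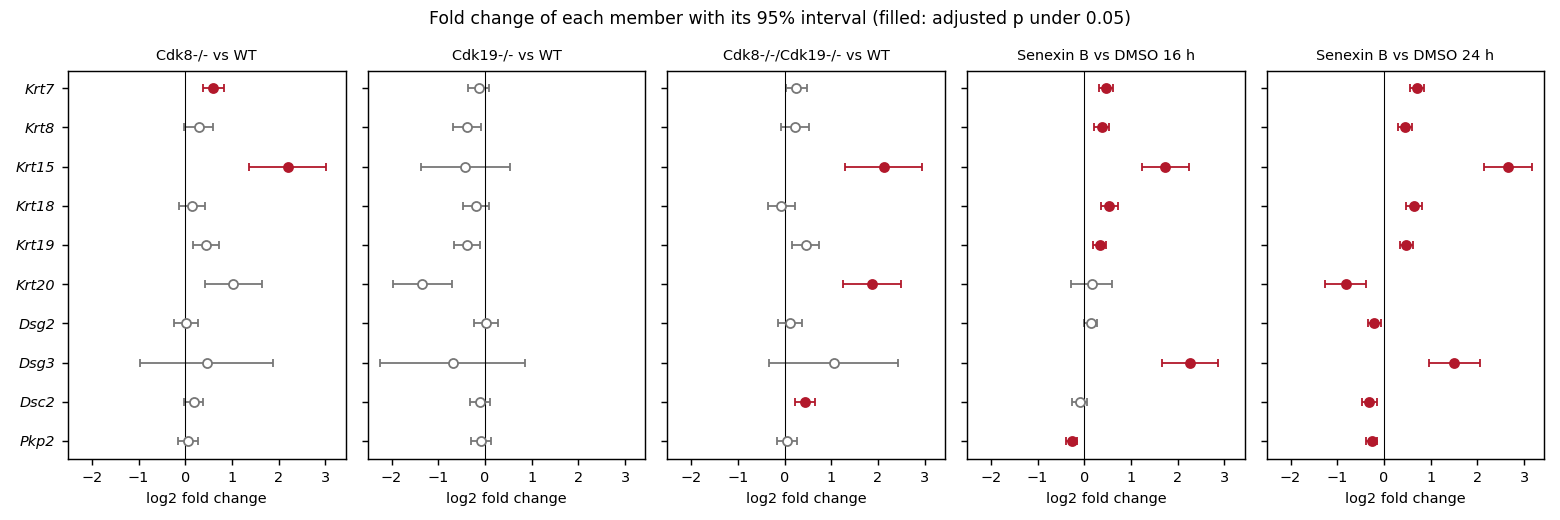
Points give the fitted log2 fold change of each member (horizontal axis) in 5 comparisons with WT or DMSO, bars span the 95% interval, and filled points passed an adjusted p of 0.05. Krt15 lies far to the right in all comparisons but that of Cdk19-/- with WT, where no point is filled, and Krt20 lies right in Cdk8-/- and double-knockout organoids and left in Cdk19-/- organoids and after 24 h of Senexin B.

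Krt20, the keratin of differentiated intestinal cells, had the widest range of the abundant members. It was at 66.8, 80.8 and 61.3 CPM in WT, at 143, 99.0 and 184 CPM in Cdk8-/-, at 44.3, 15.8 and 22.6 CPM in Cdk19-/- and at 285, 203 and 279 CPM in double-knockout libraries. The 4 groups did not overlap, with double-knockout organoids highest, then Cdk8-/-, then WT and then Cdk19-/- organoids. The fitted fold change of the double knockout against WT was 3.67, or 1.88 ± 0.317 on the log2 scale (SE, adjusted p = 0.0026), and it remained called in each of the 6 fits that left out a library, at 1.80 to 2.02. Against Cdk19-/- organoids the double knockout was 9.28-fold higher (log2 3.21 ± 0.337, SE, adjusted p = 0.00013), and 3.66 on the log2 scale without both libraries that lay at the WT level of Cdk19. In Cdk8-/- organoids the log2 difference from WT was 1.03 ± 0.311 (SE) and its adjusted p of 0.0812 missed the threshold, which it passed without a filter (adjusted p = 0.000588) and with only the compared groups (adjusted p = 0.0325). In Cdk19-/- organoids it was -1.34 ± 0.322 (SE, adjusted p = 0.155). Leaving out the library labelled Cdk19-/- replicate 1, which had the highest Krt20 of its group, gave -1.85 with an adjusted p of 0.00512.

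For loss of Cdk19, all 3 Cdk19-/- libraries lay below WT in Krt20, whereas all 3 double-knockout libraries lay above Cdk8-/-. Neither difference passed the edgeR test, since double-knockout against Cdk8-/- organoids gave 0.85 ± 0.307 on the log2 scale (SE, 95% interval 0.25 to 1.45, adjusted p = 0.227) beside the -1.34 of Cdk19-/- against WT organoids. The Krt20 difference of Cdk19-/- from WT organoids was called by DESeq2 (adjusted p = 0.0389) and without a filter (adjusted p = 4.5e-05), and that of double-knockout from Cdk8-/- organoids without a filter (adjusted p = 0.0127). The difference between these effects was 2.19 ± 0.445 on the log2 scale (SE, 95% interval 1.31 to 3.06), and its adjusted p of 0.0709 missed the threshold. Without both libraries at the WT level of Cdk19 it was 2.64 with an adjusted p of 0.00652, and Krt8 and Krt19 were called there as well, at 0.639 (adjusted p = 0.021) and 0.658 (adjusted p = 0.0226), in a fit that called 728 of 15821 genes where the fit with all libraries called 4 of 15602. With all libraries the difference for Krt20 was also called by DESeq2 (2.19, adjusted p = 0.00627) and without a filter (2.19, adjusted p = 5.29e-06). Markers of intestinal cell types were read beside Krt20. The summed level of 8 enterocyte genes was 10890 to 11160 CPM in WT, 11270 to 12090 CPM in Cdk8-/-, 6813 to 9735 CPM in Cdk19-/- and 13940 to 19470 CPM in double-knockout libraries, and 0 of 8 were at 0 counts in every library of a group. Of these genes 1 was called higher in Cdk8-/- and 4 in the double knockout against WT, 6 were higher in the double knockout against Cdk19-/-, and 0 were called in Cdk19-/- against WT or in double-knockout against Cdk8-/- organoids. Of 5 crypt stem cell markers, 1 was called lower in Cdk8-/- and 4 in the double knockout against WT and 5 in the double knockout against Cdk19-/-, with sums of 2488 to 2834 CPM in WT, 2216 to 3544 CPM in Cdk8-/-, 3309 to 5220 CPM in Cdk19-/- and 1781 to 1978 CPM in double-knockout libraries. All 5 Paneth cell markers were called higher in Cdk8-/- and in the double knockout against WT, with sums of 1230 to 1621 CPM in WT, 3742 to 4987 CPM in Cdk8-/-, 1302 to 1572 CPM in Cdk19-/- and 2424 to 4910 CPM in double-knockout libraries. Of 5 goblet cell markers 2 were called higher in Cdk8-/- and 1 in the double knockout against WT and 4 in the double knockout against Cdk19-/-, with sums of 2113 to 2939 CPM in WT, 3126 to 3611 CPM in Cdk8-/-, 1320 to 2542 CPM in Cdk19-/- and 2473 to 4039 CPM in double-knockout libraries. Of 4 tuft cell markers 2 were lower in the double knockout against WT and 1 against Cdk19-/-, with sums of 41.2 to 63.9 CPM in WT and 14.2 to 35.9 CPM in double-knockout libraries, and of 4 enteroendocrine markers 0 were called in any genotype comparison. The part of these cell types in the changes of the members was not tested.

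In the inhibitor experiment Krt20 was at 113, 71.4 and 60.2 CPM in DMSO and 79.9, 101.5 and 91.6 CPM in Senexin B at 16 h. These libraries overlapped, and the log2 difference was 0.16, with a 95% interval of -0.28 to 0.59. At 24 h it was at 96.7, 65.5 and 77.2 CPM in DMSO and at 60.1, 39.1 and 36.3 CPM in Senexin B, which was lower in each library. The log2 fold change was -0.82 ± 0.225 (SE, adjusted p = 0.0152), and the call was lost without DMSO 24 h replicate 1 (-0.662), Senexin B 24 h replicate 2 (-0.728) or Senexin B 24 h replicate 3 (-0.686). The difference between the effects at 24 h and 16 h was -0.98, with a 95% interval of -1.60 to -0.36, and did not pass (adjusted p = 0.275). Krt20 was therefore higher than in WT after loss of both kinases and lower than in DMSO after 24 h of the inhibitor, in experiments that differ in library type and duration. The enterocyte sum was 4811 to 5657 CPM in DMSO and 4676 to 5141 CPM in Senexin B at 24 h, with 3 of 8 genes called higher and 1 lower. Of the 5 Paneth cell markers 4 were called lower at 24 h, with sums of 2716 to 2924 CPM in DMSO and 1233 to 1687 CPM in Senexin B, and of the 5 crypt stem cell markers 1 was lower. Goblet cell markers had 3 of 5 higher and 1 lower, tuft cell markers 2 of 4 higher and enteroendocrine markers 1 of 4 higher. Their part in the Krt20 result was not tested either.

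**Figure D3:**
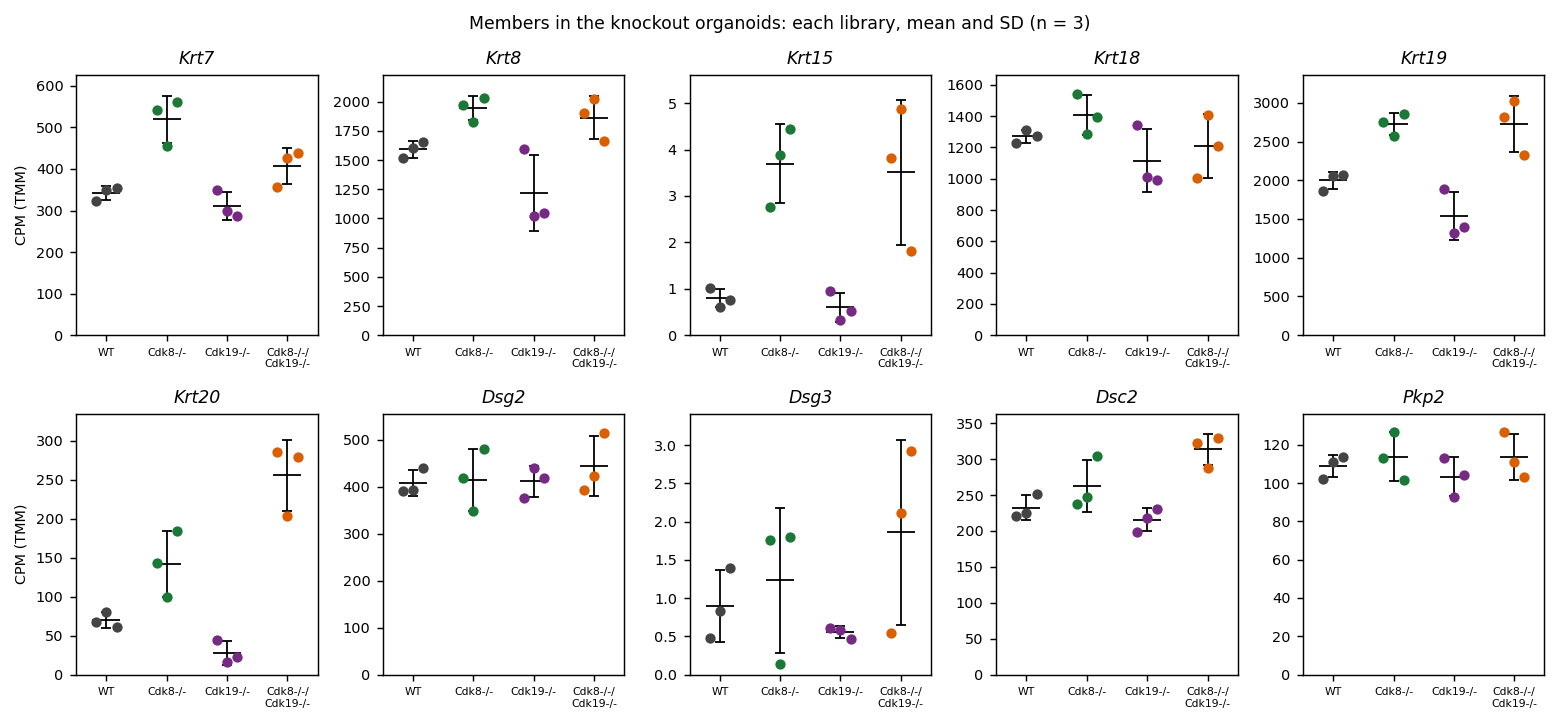
Each panel plots a member's CPM (vertical axis, from 0) in the 3 libraries of WT, Cdk8-/-, Cdk19-/- and Cdk8-/-/Cdk19-/- organoids, with a bar for the mean and whiskers for the SD. The Krt20 groups are separate, with double-knockout libraries at 203 to 285 CPM and Cdk19-/- libraries at 15.8 to 44.3 CPM, and the first Cdk19-/- library lies apart from the other 2 in Krt8, Krt18 and Krt19.

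Krt15 had the largest called rises of the keratin members against WT and DMSO, at low counts. It was at 1.01, 0.619 and 0.768 CPM in WT, 2.76, 3.89 and 4.43 CPM in Cdk8-/-, 0.944, 0.325 and 0.529 CPM in Cdk19-/- and 3.82, 4.88 and 1.82 CPM in double-knockout libraries. Libraries without Cdk8 were all above those of WT and Cdk19-/- organoids, and double-knockout replicate 3, which lay at the WT level of Cdk19, was the lowest of the 6. The rise was 4.59-fold in Cdk8-/- (log2 2.20 ± 0.422, SE, adjusted p = 0.0131) and 4.35-fold in double-knockout organoids (log2 2.12 ± 0.422, SE, adjusted p = 0.00608). Leaving out any single WT library took the Cdk8-/- call away, with adjusted p of 0.0509, 0.0706 and 0.0542, whereas the double-knockout call held in each of 6 fits and was 2.43 on the log2 scale without replicate 3.

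With Senexin B, Krt15 rose from 0.992, 1.24 and 0.720 CPM in DMSO to 2.75, 3.34 and 3.77 CPM at 16 h. At 24 h it was at 0.806, 0.952 and 0.345 CPM in DMSO and at 4.57, 4.15 and 4.55 CPM in Senexin B. Both times the groups were wide apart, by 3.33-fold at 16 h (log2 1.74 ± 0.255, SE, adjusted p = 0.000808) and 6.29-fold at 24 h (log2 2.65 ± 0.261, SE, adjusted p = 1.73e-05). The difference between the times was 0.92 on the log2 scale, with a 95% interval of 0.18 to 1.66 and an adjusted p of 0.344. Krt15 thus rose in Cdk8-/- and double-knockout organoids and at both times of Senexin B, and it was not called in Cdk19-/- organoids, where the log2 difference was -0.42 with a 95% interval of -1.38 to 0.55.

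Krt7, a type II keratin of ducts, showed smaller and tighter changes. Its values were 323, 349 and 353 CPM in WT, 543, 455 and 562 CPM in Cdk8-/-, 348, 298 and 286 CPM in Cdk19-/- and 357, 426 and 439 CPM in double-knockout libraries. Cdk8-/- libraries were the highest, double-knockout libraries came next without overlap, and WT and Cdk19-/- libraries overlapped. The rise in Cdk8-/- was 1.52-fold (log2 0.60 ± 0.115, SE, adjusted p = 0.0124), and it was lost without WT replicate 1 (adjusted p = 0.0721) or WT replicate 2 (adjusted p = 0.0525). In double-knockout organoids the difference from WT was 0.25, with a 95% interval of 0.03 to 0.48 and an adjusted p of 0.149, and that from Cdk8-/- was -0.35 (adjusted p = 0.197).

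Senexin B raised Krt7 from 294, 243 and 261 CPM to 349, 397 and 355 CPM at 16 h, and from 241, 247 and 253 CPM to 414, 404 and 398 CPM at 24 h. No library of either treated group reached down to its controls. The increase was 1.38-fold at 16 h (log2 0.46 ± 0.0745, SE, adjusted p = 0.00161) and 1.64-fold at 24 h (log2 0.71 ± 0.0747, SE, adjusted p = 2.94e-05), and both calls held in all 6 fits that left out a library.

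Krt8, Krt18 and Krt19 form the bulk of the keratin network. Krt19 was at 1867, 2052 and 2073 CPM in WT, 2750, 2573 and 2856 CPM in Cdk8-/-, 1888, 1320 and 1393 CPM in Cdk19-/- and 2820, 3024 and 2332 CPM in double-knockout libraries. Krt8 was at 1514, 1606 and 1655 CPM in WT, 1974, 1827 and 2029 CPM in Cdk8-/-, 1590, 1018 and 1046 CPM in Cdk19-/- and 1900, 2023 and 1667 CPM in double-knockout libraries. Both genes had the same layout, with Cdk8-/- and double-knockout libraries above WT and Cdk19-/- replicates 2 and 3 below it, while the library labelled Cdk19-/- replicate 1 sat at the WT level. None of these differences from WT was called, with log2 values for Krt19 of 0.45 in Cdk8-/- (95% interval 0.17 to 0.73, adjusted p = 0.0963) and 0.45 in the double knockout (0.17 to 0.73, adjusted p = 0.0506).

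The Krt19 difference between Cdk8-/- and WT organoids passed by DESeq2 (adjusted p = 0.0279) and with only the compared groups (adjusted p = 0.0357). That between double-knockout and WT organoids passed the threshold in 5 of 7 other ways of fitting, and without Cdk8-/-/Cdk19-/- replicate 3 it was 0.548 with an adjusted p of 0.0265. In Cdk19-/- organoids the log2 differences from WT were -0.39 for Krt8 and -0.38 for Krt19 (adjusted p = 0.377 and 0.332), and without the library labelled Cdk19-/- replicate 1 they were -0.612 (adjusted p = 0.013) and -0.545 (adjusted p = 0.0398). Double-knockout exceeded Cdk19-/- organoids by 0.61 ± 0.156 for Krt8 (SE, adjusted p = 0.0134) and 0.83 ± 0.145 for Krt19 (SE, adjusted p = 0.00176), and by 0.912 and 1.09 without both libraries at the WT level of Cdk19 (adjusted p = 0.000219 and 0.000109). Krt18 behaved otherwise. It was at 1227, 1310 and 1273 CPM in WT, 1540, 1285 and 1392 CPM in Cdk8-/-, 1345, 1010 and 989 CPM in Cdk19-/- and 1006, 1409 and 1212 CPM in double-knockout libraries, and all 4 groups overlapped with their neighbours in the order of means.

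All 3 rose with Senexin B. Krt8 went from 3372, 2710 and 3007 CPM to 3654, 4202 and 3876 CPM at 16 h and from 2814, 2991 and 2804 CPM to 3851, 3997 and 3911 CPM at 24 h. Krt18 went from 1325, 1048 and 1295 CPM to 1665, 1809 and 1853 CPM at 16 h and from 1230, 1349 and 1317 CPM to 1962, 2186 and 1924 CPM at 24 h. Krt19 went from 1847, 1486 and 1691 CPM to 2050, 2173 and 2077 CPM at 16 h and from 1467, 1553 and 1436 CPM to 2067, 2108 and 2048 CPM at 24 h. For each gene and time, every treated library was above every DMSO library. The fold changes were largest for Krt18, at 1.45-fold and 1.56-fold (log2 0.54 ± 0.0887 and 0.64 ± 0.0888, SE, adjusted p = 0.00195 and 0.00022). Krt8 rose by 1.29-fold and 1.37-fold (adjusted p = 0.0118 and 0.00123) and Krt19 by 1.25-fold and 1.40-fold (adjusted p = 0.0151 and 0.00046). At 16 h the Krt8 and Krt19 calls were lost without Senexin B 16 h replicate 2, at adjusted p of 0.0577 and 0.063, and when only the compared groups were fitted, at 0.0586 and 0.0699, while at 24 h they held in all 6 such fits.

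Reads of 3 members can be shared with other genes. Krt8 overlaps Gm36026, Krt7 overlaps the antisense gene Gm671 over 77 exonic bases, and Dsg2 overlaps the antisense gene Gm16090 over 330. In the unstranded genotype libraries reads from these pairs cannot be told apart, and there Gm36026 followed Krt8 with a correlation of 0.996 over 12 libraries. The pseudogene Krt8-ps held 0.0665 to 0.122% of the Krt8 counts in the genotype and 0.160 to 0.234% in the inhibitor libraries.

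**Figure D4:**
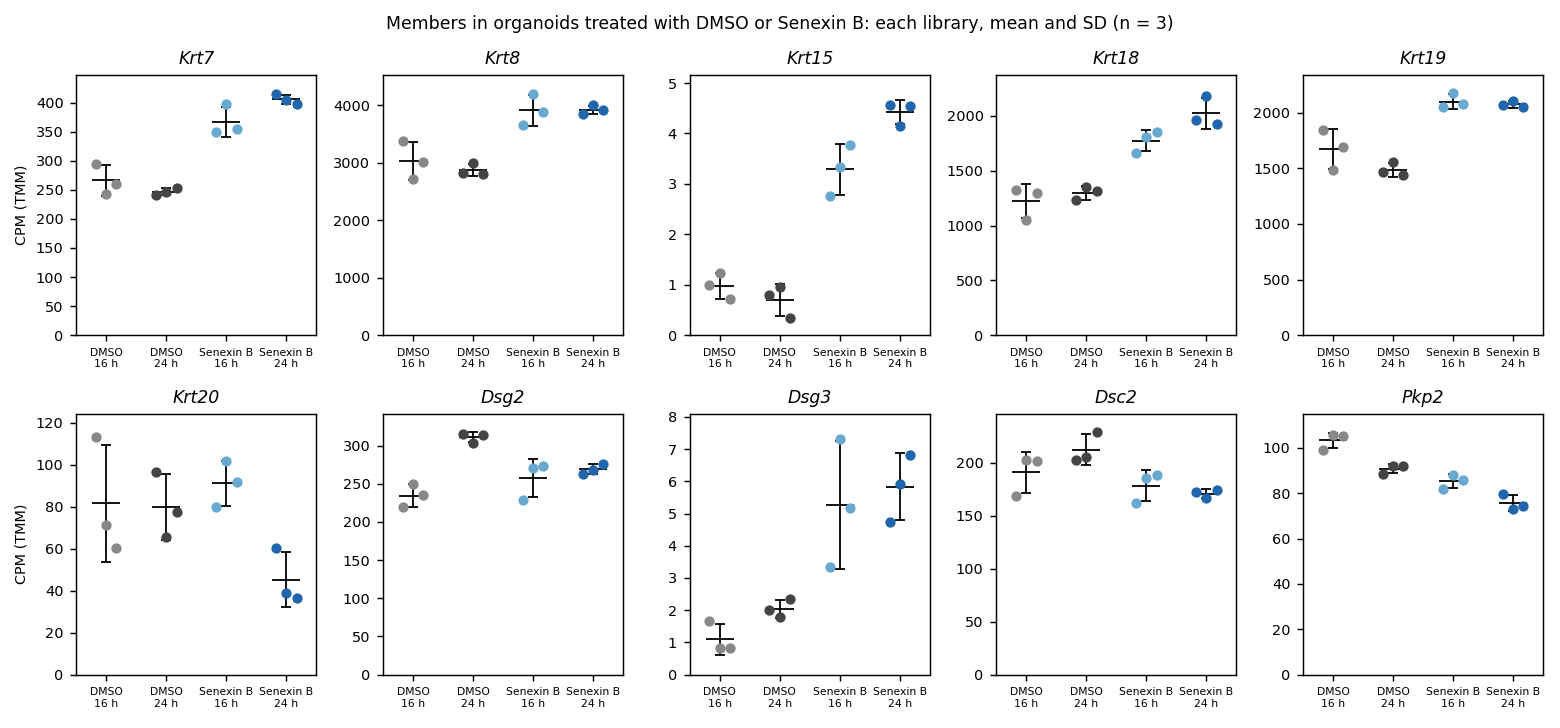
Each panel plots a member's CPM (vertical axis, from 0) in the 3 libraries of DMSO and Senexin B at 16 h and 24 h, with a bar for the mean and whiskers for the SD. The treated libraries of Krt7, Krt8, Krt15, Krt18, Krt19 and Dsg3 lie above all DMSO libraries of the same time, Pkp2 lies below them, and the Krt20 libraries overlap at 16 h and separate at 24 h.

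Among the desmosomal members, Dsg3, the desmoglein of stratified epithelia, changed most. The desmosomal cadherin genes lie on chromosome 18, where Dsg3 (ENSMUSG00000056632, chr18:20510274-20547459) and Dsg2 (ENSMUSG00000044393, chr18:20558074-20604521) follow each other on the plus strand 10.6 kb apart and Dsc2 (ENSMUSG00000024331, chr18:20030633-20059554) lies 450.7 kb from Dsg3 on the minus strand. In DMSO, Dsg3 was at 1.65, 0.812 and 0.828 CPM at 16 h and at 2.00, 1.80 and 2.34 CPM at 24 h, and in Senexin B it was at 3.35, 7.31 and 5.17 CPM at 16 h and at 4.75, 5.91 and 6.83 CPM at 24 h. These were 23 to 68 counts in DMSO and 90 to 199 counts in Senexin B libraries, with no overlap at either time. Dsg3 rose 4.81-fold at 16 h (log2 2.27 ± 0.306, SE, adjusted p = 0.000449) and 2.84-fold at 24 h (log2 1.51 ± 0.277, SE, adjusted p = 0.0015), and both calls held in all 6 fits without a library. The knockouts showed no such call. In their libraries Dsg3 was at 0.471, 0.825 and 1.40 CPM in WT, 1.75, 0.137 and 1.80 CPM in Cdk8-/-, 0.607, 0.586 and 0.462 CPM in Cdk19-/- and 0.546, 2.11 and 2.92 CPM in double-knockout organoids. With 2 to 45 counts per library the intervals were wide, from -0.96 to 1.88 on the log2 scale in Cdk8-/- and from -0.33 to 2.43 in the double knockout against WT, which include the value seen after 24 h of Senexin B. The 3 Cdk8-/- libraries held 26, 2 and 28 counts, and without double-knockout replicate 3 the difference from WT was 0.566 (adjusted p = 0.662).

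Dsg2, the desmoglein of simple epithelia, varied little with genotype. It was at 392, 393 and 440 CPM in WT, 418, 348 and 480 CPM in Cdk8-/-, 376, 441 and 420 CPM in Cdk19-/- and 394, 424 and 516 CPM in double-knockout libraries, which all overlapped. The log2 differences from WT were 0.02, 0.01 and 0.12, with 95% intervals that lay between -0.24 and 0.38. In the inhibitor experiment the clearer difference was that between the DMSO groups. Dsg2 was at 219, 250 and 235 CPM in DMSO at 16 h and at 315, 303 and 314 CPM at 24 h, a rise of 1.32-fold (log2 0.41 ± 0.0738, SE, adjusted p = 0.00556) that held in each of 6 fits without a library. Senexin B libraries were at 229, 271 and 273 CPM at 16 h and at 263, 268 and 276 CPM at 24 h, and these overlapped. At 24 h Dsg2 was lower than in DMSO by a log2 fold change of -0.21 ± 0.0736 (SE) with an adjusted p of 0.0499. The call was lost in all 6 fits without a library, at -0.225 to -0.191 and adjusted p of 0.0776 to 0.125. The difference between the Senexin B effects at 24 h and 16 h was -0.34, with a 95% interval of -0.55 to -0.14, and did not pass (adjusted p = 0.269).

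Dsc2, its desmocollin partner, rose in the double knockout. It was at 221, 225 and 252 CPM in WT, 237, 247 and 305 CPM in Cdk8-/-, 199, 218 and 230 CPM in Cdk19-/- and 322, 288 and 330 CPM in double-knockout libraries. The double-knockout libraries were above all of WT and Cdk19-/- and overlapped with Cdk8-/-. The increase over WT was 1.35-fold (log2 0.43 ± 0.109, SE, adjusted p = 0.0189), and it lost the call without WT replicate 1 or 2 or double-knockout replicate 1 or 3, at 0.392 to 0.423 and adjusted p of 0.0527 to 0.0824. Against Cdk19-/- organoids it was 0.54 (adjusted p = 0.00406), and 0.43 without both libraries at the WT level of Cdk19. With Senexin B, Dsc2 was lower at 24 h, at 172, 167 and 174 CPM against 203, 205 and 229 CPM in DMSO (log2 -0.31 ± 0.0838, SE, adjusted p = 0.0138), a call that was lost without DMSO 24 h replicate 3 (adjusted p = 0.0649) or Senexin B 24 h replicate 2 (adjusted p = 0.0573). At 16 h the libraries overlapped, at 162, 186 and 189 CPM against 168, 203 and 202 CPM, with a log2 difference of -0.10 and an interval of -0.26 to 0.07.

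Pkp2 (ENSMUSG00000041957, chr16:16213318-16272712, plus strand), the plaque protein that ties the cadherins to desmoplakin, fell with the inhibitor at both times. It was at 99.2, 105.5 and 105.1 CPM in DMSO and 82.0, 88.1 and 86.0 CPM in Senexin B at 16 h, and at 88.5, 91.9 and 91.9 CPM and 79.6, 73.1 and 74.2 CPM at 24 h. Every treated library was below every DMSO library of its time. The log2 fold changes were -0.27 ± 0.0606 (SE, adjusted p = 0.0126) and -0.26 ± 0.0608 (SE, adjusted p = 0.00605), and the difference between the times was 0.01, with an interval of -0.16 to 0.18. The call at 16 h was lost without Senexin B 16 h replicate 1 (-0.246, adjusted p = 0.0587) and with only the compared groups (-0.273, adjusted p = 0.0653). With genotype Pkp2 ranged from 92.85 to 126.8 CPM over all 12 libraries, and its log2 differences from WT were 0.06 in Cdk8-/-, -0.07 in Cdk19-/- and 0.06 in the double knockout, with 95% intervals that lay between -0.29 and 0.27.

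The desmosomal members thus did not move as 1 group with the inhibitor, since at 24 h Dsg3 was higher and Dsg2, Dsc2 and Pkp2 were lower, while 5 of the 6 keratins were higher and Krt20 was lower. Across the 12 inhibitor libraries the log2 CPM of Krt8 and Krt19 correlated at r = 0.98, of Krt7 and Krt8 at 0.97 and of Krt7 and Krt18 at 0.946, whereas Krt18 and Pkp2 correlated at -0.872 and Krt19 and Dsc2 at -0.823. Krt20 correlated with the other keratins at -0.441 to -0.21. Across the 12 genotype libraries the closest members were again Krt8 and Krt19 at 0.972, followed by Krt15 and Krt19 at 0.934 and Krt19 and Krt20 at 0.921, and Dsc2 correlated with Krt20 at 0.812. Dsg2 followed Dsg3 at 0.808 and Krt8 at -0.0338. These values describe libraries of 4 groups, so they hold the group differences and the depth and handling that libraries share.

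The other desmosome genes gave a background for these members. From a list of 12, 8 passed the filter in the genotype and 7 in the inhibitor experiment, while Dsg1a, Dsg1b, Dsc1 and Dsc3 had 0 to 3 counts in every library. Desmoplakin (Dsp) was at 537 to 814 CPM and plakoglobin (Jup) at 409 to 577 CPM in the genotype libraries. In double-knockout against WT organoids 2 of 8 were higher, Jup (log2 0.35 ± 0.106, SE, adjusted p = 0.0402) and the desmosome-associated membrane protein Perp (log2 0.50 ± 0.116, SE, adjusted p = 0.0126), and 0 were lower. In Cdk8-/- and Cdk19-/- organoids 0 of 8 were called. With Senexin B, 1 of 7 was higher at 16 h, Dsg1c, with 1 to 20 counts per library (log2 1.74 ± 0.499, SE, adjusted p = 0.0469), and 0 were called at 24 h. Pkp1, Pkp3 and Pkp4 were not called in any comparison with WT or DMSO. Dsp was called between the DMSO times, higher at 24 h by 0.42 on the log2 scale (adjusted p = 0.0162). The median log2 fold change of the list was 0.255 in the double knockout, and -0.0483 and 0.0219 with Senexin B at 16 h and 24 h.

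Of 47 further keratin genes, 8 passed the filter in the genotype and 9 in the inhibitor experiment, and their summed level was small, at 80.1 to 193 CPM and 73.6 to 153 CPM. Krt4, a type II keratin of non-cornified stratified epithelia, was higher in Cdk8-/- organoids, at 3.51, 5.32 and 7.45 CPM with a mean of 1.21 CPM in WT (log2 2.16 ± 0.489, SE, adjusted p = 0.0271), and in the double knockout (log2 1.83 ± 0.491, SE, adjusted p = 0.025), where Krt80 was the other of 2 genes called, at 1.00 (adjusted p = 0.0194). With Senexin B 5 of the 9 that passed the filter were called higher at each time and 0 lower. Of these, Krt4 and Krt80 had log2 fold changes of 1.27 and 1.04 at 16 h and 2.31 and 1.42 at 24 h, and Krt23 was at 0.42 and 0.47. The other 2 had to be higher, since they passed the filter on low counts only through Senexin B libraries. Krt84 had 0 to 2 counts in DMSO and 19 to 29 counts in Senexin B libraries, and Krt78 had 5 to 8 and 16 to 27 counts. The change of Krt4 at 24 h, from a mean of 1.56 CPM to 7.74 CPM, had an adjusted p of 3.4e-06. The rule for naming genes of these lists asked for a log2 fold change beyond 1, so Krt23 and other list genes below it were named after their values were seen.

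Linker and lamina genes changed in part. Of 9 cytolinkers and keratin-binding genes, 2 were higher in the double knockout, the plakin genes Ppl (0.52) and Dst (0.73), and at 24 h of Senexin B Evpl was higher (0.67) and Dst lower (-0.56), while Eppk1 was higher at 16 h (0.77). Among the other intermediate filament genes, 4 of 5 tested were higher at 24 h of Senexin B, namely Nes (log2 1.05 ± 0.135, SE, adjusted p = 0.000125), Lmna (0.65), Vim (0.54) and Lmnb1 (0.28), and 0 were called in Cdk8-/- or double-knockout against WT organoids. At 16 h Nes (0.61) and Lmna (0.33) were higher and Lmnb2 was lower (-0.31, adjusted p = 0.00651). Of the hemidesmosome genes, which anchor keratins to the basement membrane, Lama3, a chain of laminin, was higher in Cdk8-/- (log2 1.20 ± 0.247, SE, adjusted p = 0.0186) and in the double knockout (log2 1.59 ± 0.247, SE, adjusted p = 0.00176). At 24 h of Senexin B it was lower (log2 -1.20 ± 0.245, SE, adjusted p = 0.00282), together with Lamb3 (-0.65) and Itga6 (-0.33), 3 of 6 tested.

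Other junctions were measured from lists of 9 adherens junction and 14 tight junction genes, all of which passed the filter. Of the adherens junction genes, 2 were higher in the double knockout, Ctnna1 (0.29) and Vcl (0.45), and 2 and 3 were higher at 16 h and 24 h of Senexin B, with the p120 catenin gene Ctnnd1 called at both times (0.53 and 0.47). Of the tight junction genes, 4 were higher in the double knockout, namely Cldn4, F11r (0.69), Cldn23 (0.56) and Cgn (0.44), 5 were higher at 16 h, and at 24 h of Senexin B 6 were higher and Tjp1 was lower (-0.27). The claudins Cldn2 (0.56 and 0.59), Cldn3 (0.65 and 0.71) and Cldn4 (0.87 and 0.52) were higher at both times. Cldn4 was also higher in Cdk8-/- (log2 1.05 ± 0.266, SE, adjusted p = 0.0437), as 1 of 14, and in the double knockout (0.84, adjusted p = 0.0465). The median log2 fold change of tight junction genes was 0.199 and 0.113 with Senexin B, and that of adherens junction genes 0.0778 and 0.0583, beside 0.347 and 0.466 for the members. Members and lists were chosen with earlier results of these data known, so these medians are no ranking of the gene sets.

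Markers of other epithelia were read beside Krt4, Krt15 and Dsg3. The basal keratins Krt5 and Krt14 and the transcription factor Trp63, which define stratified epithelium, had at most 13, 4 and 12 counts in any library. Krt5 had 0 counts in all 6 WT and Cdk19-/- libraries, 13, 4 and 7 counts in Cdk8-/- and 3, 10 and 11 counts in double-knockout libraries, and 0 to 5 counts in the inhibitor libraries. Of the 9 markers of stratified epithelium examined, 3 were at 0 in every WT library and 1 in every DMSO library of either time. Their summed level was 7.88 to 9.29 CPM in WT, 10.5 to 15.4 CPM in Cdk8-/- and 8.53 to 14.1 CPM in double-knockout libraries. It was 3.35 to 4.15 CPM and 4.31 to 4.45 CPM in DMSO and 6.17 to 6.80 CPM and 11.6 to 13.1 CPM in Senexin B at 16 h and 24 h. Of the 3 that could be tested there, 2 were called higher at each time, and Krt4 is itself in this list. Of 6 markers of regenerative or fetal-like epithelium, 4 were called higher in Cdk8-/- and 2 in the double knockout against WT, and 4 of the 5 tested were higher at each time of Senexin B. Their sum was 398 to 519 CPM in WT, 684 to 1072 CPM in Cdk8-/-, 369 to 676 CPM in double-knockout and 420 to 448 CPM in Cdk19-/- libraries, so that double-knockout and WT libraries overlapped, and 363 to 430 CPM in DMSO and 533 to 882 CPM in Senexin B libraries. The part of either list in the changes of the members was not tested.

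The genes with the most similar pattern to a member were taken by Pearson correlation of log2 CPM over the 12 libraries of an experiment, among 12133 and 12005 genes with a mean of at least 50 counts. In the genotype experiment the nearest to Krt20 were 1110046J04Rik (0.99), Serpinb6a (0.989) and Apoa1 (0.989), an apolipoprotein of enterocytes, and the nearest to Dsc2 was Apob (0.982), another apolipoprotein. The nearest to Krt19 was Lmna (0.981), to Krt7 Zyx (0.942), to Krt15 Abcb1b (0.978), to Krt18 Atoh1 (0.952), to Dsg2 Slu7 (0.958), to Dsg3 Tm4sf1 (0.928) and to Pkp2 P4ha2 (0.928). Atoh1 is the transcription factor of secretory cells. In the inhibitor experiment the nearest to Krt8 was Tpm1 (0.981), a tropomyosin that was also second for Krt7 (0.981) behind Rflnb (0.985), and Krt8 and Krt19 were each among the nearest 3 genes of the other (0.98). The nearest were Ptp4a3 for Krt15 (0.963), Anxa3 for Krt18 (0.974), Slc22a23 for Krt20 (0.966), Gprin3 for Dsg2 (0.972), Serpinb1a for Dsg3 (0.98), Tbc1d8b for Dsc2 (0.98) and Sec24d for Pkp2 (0.98). These are the highest of many correlations over libraries that share their groups, and they are given as a description.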

How the data were processed

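Organoid RNA was sequenced as single-end reads, which the study aligned with STAR to GRCm38.p6 with the Ensembl 93 annotation. Its methods name version 2.6.0a of STAR and the submitters' processing notes 2.6.0c, and oligo(dT) selection is stated where the labels of the inhibitor libraries describe rRNA-depleted total RNA. The authors deposited raw STAR read counts per gene, not normalised, in 3 columns of which column 4 was used. It held 49.55 to 49.74% of the counts of both strand columns in the genotype libraries, which are therefore unstranded, and 87.9 to 90.54% in the inhibitor libraries.

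Of 54146 genes, 54079 matched GENCODE vM21, which has the same build. Each experiment was fitted alone with edgeR 4.0.16 (R 4.3.3) by TMM scaling, filterByExpr and the quasi-likelihood test over 12 libraries, with Benjamini-Hochberg adjustment and a threshold of 0.05. DESeq2 1.42.0 was an alternative, as were its size factors, no filter, at least 10 counts in every library, the unstranded counts, the compared groups alone, a replicate block and leaving out each library. No pair of libraries within a group differed by as little as sampling noise (chi-square per degree of freedom at least 2.541). Intervals are 95% Wald intervals. The labels call the libraries of a group biological triplicates and say no more on their origin, so p-values measure the spread between these libraries.

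The deviations of same-numbered DMSO and Senexin B libraries correlated at 0.303, 0.101 and 0.11 at 16 h and at 0.377, 0.137 and 0.187 at 24 h. Differently numbered libraries reached 0.154 at 16 h and 0.147 at 24 h, above some of these values. A pairing by number is thus not established, and it would come from the data alone. The block changed no call of a member in either Senexin B comparison. In each of the other comparisons a same-numbered pair had a correlation below 0.1.

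The members, lists and markers were chosen with earlier results of these data known. All 10 members were reported. From the lists, genes called against WT or DMSO with a log2 fold change beyond 1 were named, at most 4 per list and comparison, with every tested desmosome gene considered, and for each member the 3 most correlated genes with a mean of at least 50 counts were found on log2(CPM + 0.1), of which some are named. Leaving out both libraries at the WT level of Cdk19, and dividing by the length of all exons, were chosen after seeing the data.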

Additional observations from a re-analysis of the deposited data

Results flagged for a closer look

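Krt20 was singled out because its fitted differences for loss of Cdk19 had opposite signs in the presence and absence of Cdk8. All 3 Cdk19-/- libraries lay below all WT libraries, whereas all 3 double-knockout libraries lay above all Cdk8-/- libraries. Neither difference passed the test of edgeR, at -1.34 (adjusted p = 0.155) and 0.85 (adjusted p = 0.227) on the log2 scale, whereas DESeq2 called Krt20 in the first (adjusted p = 0.0389) and the fit without a filter in both (adjusted p = 4.5e-05 and 0.0127). The difference between these effects was 2.19 ± 0.445 on the log2 scale (SE), with an adjusted p of 0.0709 by the quasi-likelihood test of edgeR, and over all settings and left-out libraries it kept its sign. It was called by DESeq2 (adjusted p = 0.00627), without a filter (adjusted p = 5.29e-06) and in 2 of 12 fits without a library, those without Cdk8-/- replicate 3 (2.42, adjusted p = 0.0329) or Cdk19-/- replicate 1 (2.7, adjusted p = 0.0059). Without both libraries at the WT level of Cdk19 it was 2.64 (adjusted p = 0.00652). No cause was tested.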

How the results depend on the processing

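Counts of called members moved under some settings. In Cdk8-/- against WT organoids 1 member was called with at least 10 counts in every library, beside 707 of 13391 genes, as Krt15 did not reach that count and was not tested there. In the same comparison 4 were called with only the compared groups, beside 937 of 14971 genes, and 0 to 2 when a library was left out, beside 196 to 699 genes. In Cdk19-/- against WT organoids DESeq2 and the fit without a filter each called Krt20 as 1 member, beside 298 of 15932 and 479 of 29805 genes, and fits without a library called 0 to 3, beside 0 to 521 genes. Without a filter 1 member was called in double-knockout against Cdk8-/- organoids, 1 for the departure from the sum of the single knockouts, Krt20 in both, beside 358 and 566 of 29805 genes, and 1 for the difference between the times of Senexin B, beside 121 of 28413 genes. DESeq2 called 1 for that departure, beside 481 of 14776 genes, and fits without libraries 0 to 3, beside 0 to 728 genes. At 16 h of Senexin B only the compared groups gave 4, beside 725 of 14907 genes, and Krt8, Krt19 and Pkp2 were lost. Between DMSO times DESeq2 called 3, no filter 2, the replicate block 2, beside 2258, 1862 and 3281 genes in place of 1719, and fits without a library 1 to 3, beside 434 to 2296 genes. In that block Pkp2 was called at -0.186 (adjusted p = 0.0352), although the numbers did not pair the DMSO libraries. The block changed no other count past 1.5 times.

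Type I over type II keratin from unstranded counts was 2.62 in WT, 2.65 in Cdk8-/-, 2.75 in Cdk19-/-, 2.74 in double-knockout, 1.47 and 1.53 in DMSO and 1.47 and 1.5 in Senexin B organoids at 16 h and 24 h. With the length of all exons it was 2.32 in WT, 2.37 in Cdk8-/-, 2.45 in Cdk19-/-, 2.42 in double-knockout, 1.13 and 1.16 in DMSO and 1.18 and 1.24 in Senexin B organoids.

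Signs turned for uncalled values near 0. In double-knockout against Cdk8-/- organoids Krt15 was 0.0862 from unstranded counts. Krt19 there was 0.0127 by DESeq2, 0.0137 with its size factors, 0.00859 without a filter, 0.00584 with at least 10 counts and 0.00731 with only the compared groups, and Pkp2 was 0.0129, 0.0139, 0.00745, 0.0054 and 0.00623 in the same order. The difference between times for Pkp2 was -0.00338 with at least 10 counts and -0.00841 from unstranded counts. Leaving out a library gave, in Cdk8-/- against WT, -0.108 to 0.138 for Dsg2 and -0.0226 to 0.122 for Pkp2. In Cdk19-/- against WT it gave -0.0309 to 0.0892 for Dsg2 and -0.132 to 0.00257 for Pkp2, and in the double knockout against WT -0.195 to 0.058 for Krt18 and -0.012 to 0.124 for Pkp2. In double-knockout against Cdk8-/- organoids it gave -0.124 to 0.0272 for Krt8, -0.392 to 0.247 for Krt15 and -0.0823 to 0.113 for Krt19. There it also gave -0.0153 to 0.225 for Dsg2 and -0.069 to 0.0819 for Pkp2. Against Cdk19-/- organoids, leaving out a library gave -0.00782 to 0.253 for Krt18 and -0.0211 to 0.18 for Dsg2. With the fit without both libraries at the WT level of Cdk19 added, the ranges reached 0.256 for Krt18 and -0.0875 for Dsg2. Without a library, the departure from the sum of the single knockouts ranged from -0.155 to 0.121 for Krt18 and -0.0318 to 0.202 for Dsg2. For Pkp2 it ranged from -0.0127 to 0.157. With the fit without both of those libraries added, the departure reached 0.124 for Krt18, -0.0981 for Dsg2 and 0.209 for Pkp2. At 16 h of Senexin B Krt20 ranged from -0.0196 to 0.467. Between DMSO times Krt8 ranged from -0.152 to 0.00593, Krt18 from -0.0118 to 0.149 and Krt20 from -0.208 to 0.278, and the difference between Senexin B effects from -0.00206 to 0.156 for Krt8 and from -0.0273 to 0.0387 for Pkp2.

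Over all members and comparisons, 656 values from fits without a library, or without both libraries at the WT level of Cdk19, kept their direction and side of the threshold. Of the other values from these fits 29 lost a call, 13 gained one and 42 changed sign. For the other settings these were 625, 7, 20 and 13. Over all genes, the block moved the calls from 1198 to 2293 at 16 h of Senexin B and from 1719 to 3281 between DMSO times, where only the compared groups gave 385, against 725 at 16 h. In Cdk8-/- against WT organoids 804 genes became 1276 by DESeq2 and 1269 without a filter, and 196 to 464 without 1 of 5 libraries. In double-knockout against WT organoids 2700 became 1348 to 1795 without a WT library. Double-knockout against Cdk8-/- organoids gave 4 genes, 402 by DESeq2, 358 without a filter and 839 without Cdk8-/- replicate 3, and the departure from the sum gave 4, 481 by DESeq2, 566 without a filter and 728 without both libraries at the WT level of Cdk19. That departure was called for 392 genes without Cdk8-/- replicate 3, 467 without Cdk19-/- replicate 1 and 0 to 71 without 1 of the other libraries. Cdk19-/- against WT organoids gave 521 genes without Cdk19-/- replicate 1, and double-knockout against Cdk19-/- organoids 2399 in place of 3953 without Cdk19-/- replicate 2. At 16 h of Senexin B 657 to 752 genes were called without a Senexin B library and 1819 without DMSO 16 h replicate 1, and at 24 h 2656 in place of 4252 without Senexin B 24 h replicate 2. Between DMSO times 434 were called without DMSO 16 h replicate 3 and 522, 1095 and 946 without DMSO 24 h replicate 1, 2 or 3. The cause of these differences was not tested. Krt15 and Dsg3 had as few as 5 and 2 counts in a library, and the part of depth in their results was not tested.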
